A study of Homo sapiens with 3 samples.

Results

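The miR-148 and miR-152 family was examined in small RNA libraries from the human liver cancer line HCCLM3 (hepatocellular carcinoma, HCC) and its subclones, 3 strains in all. Its members were taken by name, as every listed miRNA named hsa-miR-148a, hsa-miR-148b or hsa-miR-152 with any arm suffix. These were 5 of the 1921 listed names: hsa-miR-148a-3p, hsa-miR-148a-5p, hsa-miR-148b-3p, hsa-miR-148b-5p and hsa-miR-152. The family was selected on the read counts of its members in these same libraries, with their values already known, so the values below describe it and none is a test. The libraries came from the parent line, labelled as having low metastasis, from subclone1, labelled as more metastatic to the lung in particular, and from subclone2, labelled as reaching lung and celiac lymph node. All strains were grown in DMEM without a treatment in the labels, and 1 ug of total RNA entered each library. The study describes its parental line as HCCLM3 carrying a red fluorescent protein with high metastatic potential, and derived both uncloned and single-cell lines from its metastases. The labels do not say which of these lines the subclones are, and if clonal, each would stand for 1 clone. Each strain had 1 library, and no difference given here has a replicate check.

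miRNAs are cut from a hairpin precursor, and the strand that stays bound to an Argonaute protein pairs with target mRNAs mainly through its seed, bases 2 to 8. miR-148a, miR-148b and miR-152 come from separate genes but share a seed, so many predicted targets are common to them. The maintenance DNA methyltransferase DNMT1 is among the best studied of these targets. miR-148a is known as one of the abundant miRNAs of adult liver, where it is linked to hepatocyte differentiation, and lower levels of the family have been described in HCC and other carcinomas.

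The mature guide strands are shown with the seed in capitals, because the seed defines the family and the few bases that differ decide which name a read received. The sequences are from RefSeq (GRCh38.p14), in which hsa-miR-152 is called hsa-miR-152-3p, and 4 of the 5 listed names had an entry.
hsa-miR-148a-3p: uCAGUGCAcuacagaacuuugu
hsa-miR-148b-3p: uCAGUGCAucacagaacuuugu
hsa-miR-152-3p: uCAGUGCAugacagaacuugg
The strand from the other side of the MIR148B hairpin has another seed.
hsa-miR-148b-5p: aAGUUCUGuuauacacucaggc

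Counted from 1 at the 5′ end of the mature strand, with the base of the first-named miRNA first, hsa-miR-148a-3p differs from hsa-miR-148b-3p by C9U and U10C. hsa-miR-148b-3p differs from hsa-miR-152-3p by C10G and U20G over 21 compared bases. hsa-miR-148a-3p and hsa-miR-148b-3p share at most 12 consecutive bases, and each of them shares at most 9 with hsa-miR-152-3p. Outside the family, the longest run shared with another listed miRNA was 11 bases (hsa-miR-148b-3p with hsa-miR-33a-3p). How many mismatches a read was allowed is not given in the sources used here, so how exactly reads were divided between these names is unsure.

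The genes lie on different chromosomes. MIR148A (chr7:25949919-25949986, minus strand) overlaps no other gene in GENCODE 29, and the nearest protein-coding gene, NFE2L3, is 202254 bases away. MIR148B (chr12:54337216-54337314, plus strand) lies in an intron of COPZ1, and MIR152 (chr17:48037161-48037247, minus strand) in an intron of COPZ2, 783 bases from the start of that gene. COPZ1 and COPZ2 are paralogs that encode the zeta subunits of the COPI vesicle coat, so these hairpins lie inside related host genes, each on the strand of its own host. MIR148B also overlaps an intron of the transcript AC078778.2. The hairpins are shown with the mature strands that RefSeq lists in capitals, the guide being the strand nearer the 3′ end.
MIR148A: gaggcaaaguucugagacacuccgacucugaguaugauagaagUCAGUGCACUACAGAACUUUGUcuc
MIR148B: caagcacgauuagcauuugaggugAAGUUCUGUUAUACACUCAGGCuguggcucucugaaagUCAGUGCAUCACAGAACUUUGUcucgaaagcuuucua
MIR152: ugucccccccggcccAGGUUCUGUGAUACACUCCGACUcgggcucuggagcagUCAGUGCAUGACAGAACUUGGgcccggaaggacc

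The libraries held 7902438 counts (parent), 3570864 (subclone1) and 4568075 (subclone2), and levels are given as CPM, the count divided by the library total and multiplied by 1000000, with exact 95% binomial intervals (Clopper-Pearson). These intervals, and those of all ratios, cover counting error only. Where no read was counted, the limit (3 counts) was 0.380, 0.840 and 0.657 CPM in these libraries. As a check of the label, the 4 hepatocyte names summed to 18642, 60522 and 69334 CPM (parent, subclone1, subclone2), nearly all from hsa-miR-192-5p, which other epithelia also express. hsa-miR-122-5p, the most specific of them to hepatocytes, had only 6.71, 5.32 and 3.94 CPM, and hsa-miR-885-5p had 0 counts in every library. Other marker lists summed to at most 0.280 CPM (erythroid), 1.40 (leukocyte), 4.94 (fibroblast and smooth muscle), 0.438 (endothelial) and 23.2 (muscle).

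hsa-miR-148b-3p was the most counted member in every library. Parent, subclone1 and subclone2 held 1188, 619 and 562 of its counts, which corresponds to 150.3 CPM (141.9 to 159), 173 CPM (159.96 to 188) and 123 CPM (113 to 134). With the library total as the scaling, the intervals did not overlap, with subclone1 highest and subclone2 lowest, but the whole range was narrow. The intervals of parent and subclone1 nearly touched. Under each other scaling, at least 1 interval of the ratio of a subclone to the parent included 1. By count it stood at place 78 of 743 detected miRNAs in the parent, 74 of 670 in subclone1 and 80 of 675 in subclone2.

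hsa-miR-152 varied far more. The parent held 355 counts of it, subclone1 503 and subclone2 288, or 44.9 CPM (40.4 to 49.8), 141 CPM (129 to 154) and 63.0 CPM (55.97 to 70.8). Subclone1 stood apart from the other two libraries, subclone2 lay above the parent, and no intervals overlapped. Its places by count were 109, 80 and 98 in the same order. The shallower subclone1 library thus held more hsa-miR-152 reads than the deeper parent library.

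hsa-miR-148a-3p, the liver-enriched member, was scarce in all strains. It had 27, 24 and 25 counts in parent, subclone1 and subclone2, or 3.42 CPM (2.25 to 4.97), 6.72 CPM (4.31 to 10.0004) and 5.47 CPM (3.54 to 8.08). The parent was lowest, but each interval overlapped the others. hsa-miR-148b-3p was counted 44, 25.8 and 22.5 times as often in the same libraries. Such ratios between different miRNAs also carry the preference of the ligation step for certain ends. hsa-miR-148b-5p had 38, 23 and 20 counts (4.81, 6.44 and 4.38 CPM), and hsa-miR-148a-5p 0, 1 and 1.

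**Figure D1:**
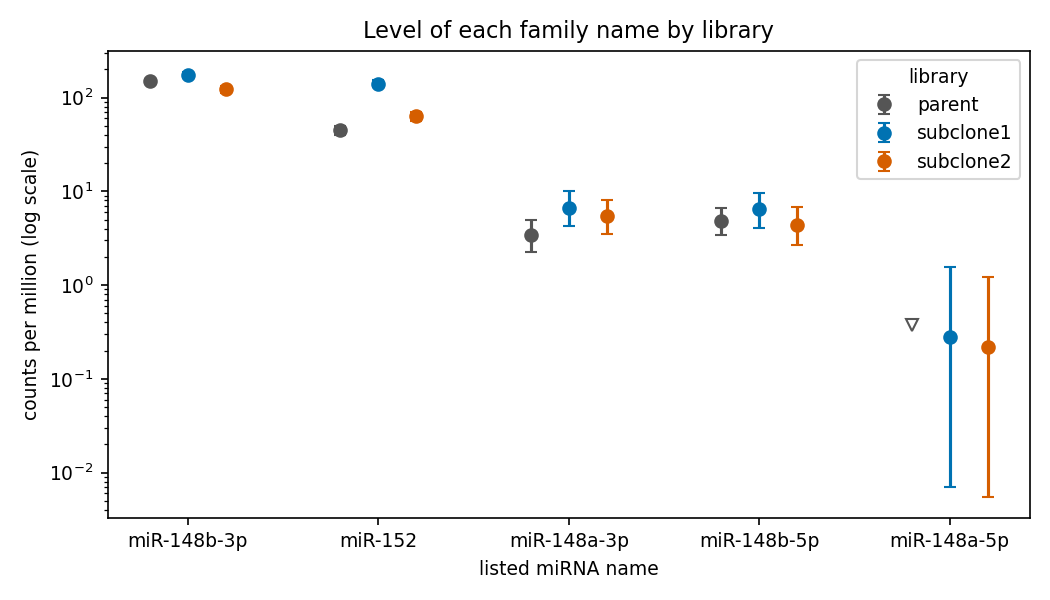
Level of each of the 5 family names in CPM (log axis) in the parent, subclone1 and subclone2 libraries, with exact 95% binomial intervals for counting error and an open triangle at the limit that a count of 0 allows (0.380 CPM). hsa-miR-152 spreads from 44.9 to 141 CPM, whereas hsa-miR-148b-3p stays between 123 and 173 CPM and hsa-miR-148a-3p below 7 CPM.

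The strain with lung metastasis, subclone1, was first set against the parent. hsa-miR-152 was 3.13-fold higher in subclone1 (95% interval 2.73 to 3.60, log2 ratio 1.65). It was the only member called, where a call needs a mean of at least 10 CPM over both libraries (a kept miRNA), a ratio of at least 2-fold and an interval that excludes 1. hsa-miR-148b-3p, the other kept member, was 1.15-fold higher (1.04 to 1.27). Of all 192 kept miRNAs, 13.0% were called, 9.90% as higher, and hsa-miR-152 had the eighth highest ratio (place 8), while hsa-miR-148b-3p was at place 66. The median log2 ratio of the 2 kept members, 0.93, is only the midpoint of 1.65 (hsa-miR-152) and 0.21 (hsa-miR-148b-3p), and neither lies near it. Over all kept miRNAs the median was 0.02. hsa-miR-148a-3p was below the minimum level. Its ratio of 1.97-fold (1.09 to 3.54) rested on 24 and 27 counts.

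In subclone1 against the parent, some marker miRNAs differed in the same direction as hsa-miR-152. The 3 muscle names summed to 7.59 CPM in the parent, 23.2 CPM for subclone1 and 7.88 CPM for subclone2. They comprise hsa-miR-1 with 53, 77 and 32 counts, hsa-miR-206 with 6, 5 and 3, and hsa-miR-133a with 1 in each. Of the 4 hepatocyte names, hsa-miR-192-5p (18528, 60246 and 69068 CPM) and hsa-miR-194-5p (108, 271 and 263 CPM) were called higher in both subclones. hsa-miR-122-5p and hsa-miR-885-5p were not kept. The log2 ratios of hsa-miR-122-5p to the parent were negative, -0.31 in subclone1 and -0.74 in subclone2, with intervals that include 0. Between the subclones hsa-miR-192-5p was slightly higher in subclone2 (log2 ratio 0.20), where hsa-miR-152 was lower. The library of subclone1, where hsa-miR-152 was highest, was also the shallowest. The part of these differences in the level of hsa-miR-152 was not tested.

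The strain with lung and lymph node metastasis, subclone2, differed less from the parent. No member of the 2 kept was called, where 10.7% of 187 kept miRNAs were. hsa-miR-152 was 1.40-fold higher in subclone2 (1.20 to 1.64, log2 ratio 0.49), at place 23 from the highest. The log2 ratio of hsa-miR-148b-3p was -0.29 (-0.44 to -0.14), the opposite direction to that in subclone1, and the 1.60-fold ratio of hsa-miR-148a-3p had an interval of 0.892 to 2.87 that includes 1. Both comparisons use the same parent library. The median log2 ratio over all kept miRNAs was -0.15, so that of hsa-miR-148b-3p lay 71st from the lowest (place 71), well inside the bulk.

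The labels of the subclones differ in lymph node metastasis. With 1 library each, this cannot be told apart from any other difference between these lines. Between the subclones, hsa-miR-152 was 2.23-fold lower in subclone2 than in subclone1 (1.93 to 2.59, log2 ratio -1.16). It was called lower, with the seventh lowest ratio (place 7) of 191 kept miRNAs, of which 5.76% were called and 4.19% called lower. This call depended on the scaling. TMM factors gave a log2 ratio of -0.93 and median-of-ratios factors -0.95, both short of 2-fold, while the median over kept miRNAs moved from -0.17 to 0.07 under TMM. hsa-miR-148b-3p was not called (log2 ratio -0.49, interval -0.66 to -0.33, place 44 from the lowest). The ratio of hsa-miR-148a-3p had an interval of 0.446 to 1.49, so no difference was detectable at this depth.

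**Figure D2:**
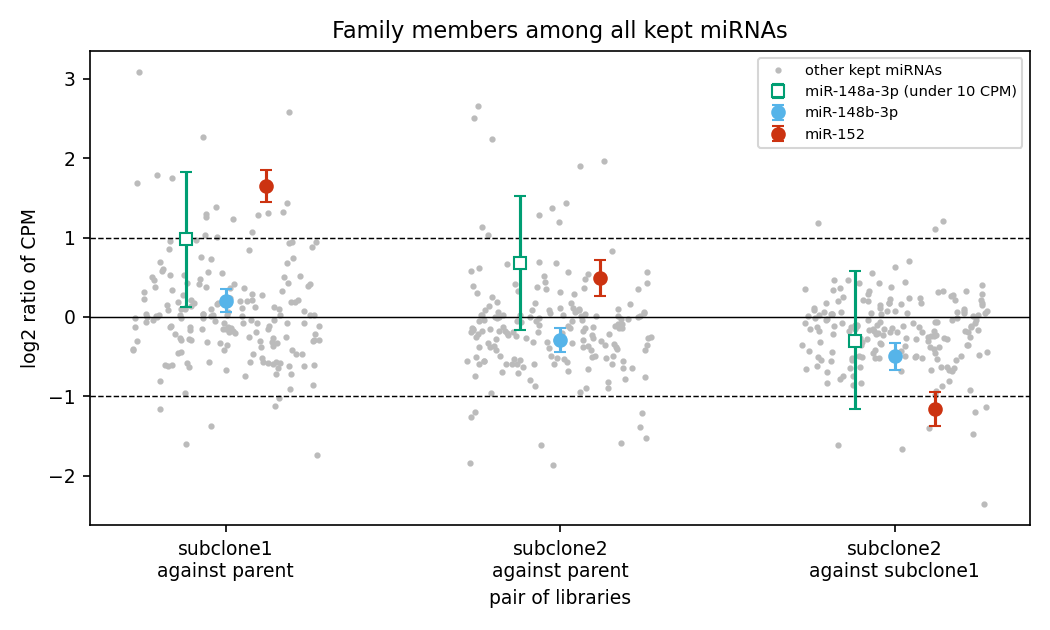
Log2 ratio of CPM for each pair of libraries, with grey points for the other kept miRNAs, coloured points for the guide-strand members with 95% counting intervals, an open square where the member is under 10 CPM, and dashed lines at 2-fold. hsa-miR-152 lies above the upper line in subclone1 against parent (1.65) and below the lower one in subclone2 against subclone1 (-1.16), while hsa-miR-148b-3p lies among the grey points in each pair.

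Summed over all 5 names, the parent had 203 CPM of the family (194 to 214), subclone1 had 328 CPM (309 to 347) and subclone2 had 196 CPM (184 to 209). Subclone1 was 1.61-fold above the parent (1.49 to 1.74), and subclone2 was 1.67-fold below subclone1 (1.53 to 1.82). Parent and subclone2 overlapped, with a log2 ratio of -0.05 (-0.17 to 0.07) that was 0.12 under TMM scaling. The sum hides a change in make-up. Scaled by the library total, subclone2 was only 7.34 CPM below the parent. There hsa-miR-148b-3p was 27.3 CPM lower and hsa-miR-152 18.1 CPM higher in subclone2, so the members partly cancelled. Of the 124 CPM by which subclone1 exceeded the parent, hsa-miR-152 supplied 95.9 CPM or 77.3%, and hsa-miR-148b-3p 18.5%. Of the 132 CPM by which subclone1 exceeded subclone2, hsa-miR-152 supplied 59.2% and hsa-miR-148b-3p 38.3%.

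The share of the guide-strand counts that belonged to each member shows this directly. hsa-miR-152 took 22.6% of them in the parent library (20.6 to 24.8), but 43.9% in that of subclone1 (40.99 to 46.8) and 32.9% in that of subclone2 (29.8 to 36.1). hsa-miR-148b-3p held 75.7%, 54.0% and 64.2%, and remained the larger share in every library. hsa-miR-148a-3p held 1.72% (1.14 to 2.49), 2.09% (1.35 to 3.10) and 2.86% (1.86 to 4.19), with overlapping intervals.

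**Figure D3:**
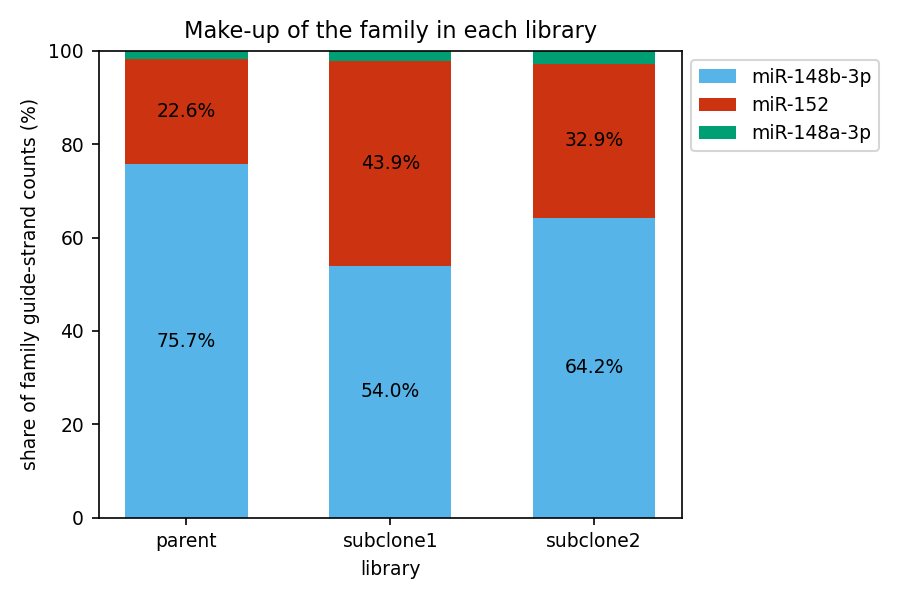
Share of the guide-strand counts of the family (percent, bars from 0 to 100) held by hsa-miR-148b-3p, hsa-miR-152 and hsa-miR-148a-3p in each library. The hsa-miR-152 share is 22.6%, 43.9% and 32.9% from left to right.

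A ratio of 2 members within a library does not depend on the library total or on its scaling, and a ligation preference that is the same in all libraries cancels when it is compared between them. For each read of hsa-miR-148b-3p the parent held 0.299 reads of hsa-miR-152, subclone1 0.813 and subclone2 0.512. This ratio was 2.72 times as high in subclone1 as in the parent (2.30 to 3.21) and 1.71 times as high in subclone2 as in the parent (1.43 to 2.06). In subclone2 it was 0.631 times that of subclone1 (0.525 to 0.759). Each of the 3 intervals lies wholly to one side of 1. As the family was selected on these counts, this is a description of the libraries. In bulk RNA, a shift in every cell and a shift in the share of cells with a high level cannot be told apart.

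The ratio of hsa-miR-148a-3p to hsa-miR-148b-3p was less precise because of the few hsa-miR-148a-3p counts. It was 1.96 times as high in subclone2 as in the parent (1.13 to 3.39), and 1.71 times as high in subclone1 with an interval of 0.983 to 2.97 that includes 1. Between the subclones its interval was 0.651 to 2.02. The ratio of hsa-miR-148a-3p to hsa-miR-152 was 1.82 times as high in subclone2 as in subclone1 (1.02 to 3.22), and against the parent both of its intervals included 1 (0.359 to 1.10 in subclone1, 0.652 to 2.002 in subclone2).

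**Figure D4:**
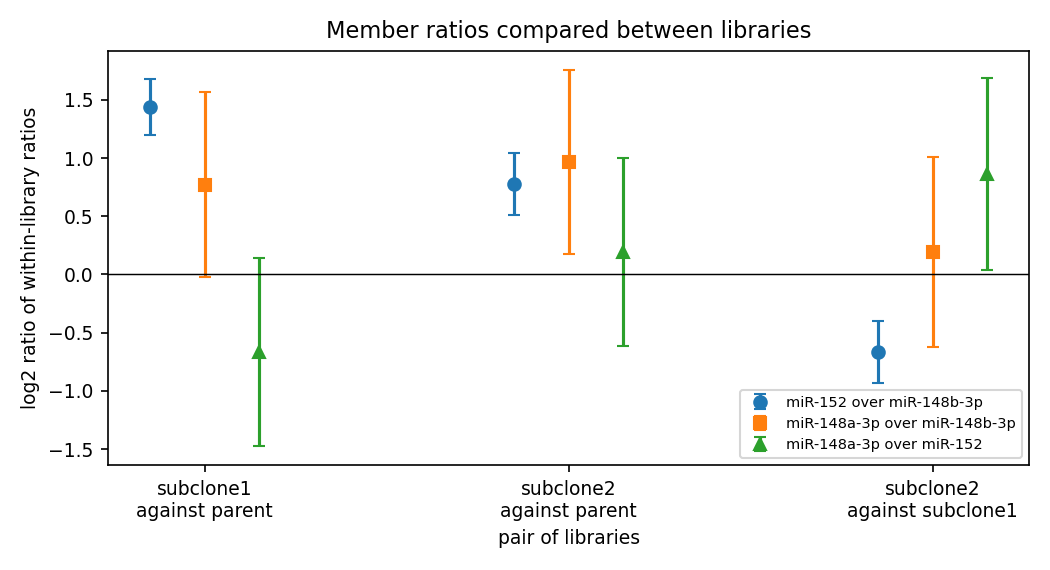
Within-library ratio of 2 members compared between each pair of libraries, as a log2 ratio with 95% intervals for counting error. The hsa-miR-152 to hsa-miR-148b-3p ratio (circles) lies at 1.44, 0.78 and -0.66 with intervals that exclude 0, and the ratios with hsa-miR-148a-3p (squares and triangles) have wide intervals, of which 4 of 6 include 0.

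Use of the hairpin arms did not differ detectably between the strains. The 5p name took 3.10% of the MIR148B counts of the parent (2.20 to 4.23), 3.58% of those of subclone1 (2.28 to 5.33) and 3.44% of those of subclone2 (2.11 to 5.26). The ratio of hsa-miR-148b-5p was 1.35-fold in subclone1 against the parent (0.762 to 2.31) and 0.921-fold in subclone2 (0.502 to 1.60), so its intervals hold the ratios of the guide strand. For MIR148A the 5p name took 0 of 27 counts (parent), 1 of 25 (subclone1) and 1 of 26 (subclone2). No 5p name is listed for miR-152, so its arms could not be compared.

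By CPM, all 3 guide-strand members were highest in subclone1. hsa-miR-152 and hsa-miR-148a-3p had the same order of libraries, with subclone2 second and the parent lowest. For hsa-miR-148a-3p this order is unresolved, as it rests on 27, 24 and 25 counts (parent, subclone1, subclone2) with overlapping intervals. As a measure of likeness, the distance between 2 miRNAs was taken over their log2 ratios of both subclones against the parent, and no library scaling can change it. hsa-miR-152 and hsa-miR-148b-3p were 1.64 apart. Among the 190 other miRNAs that averaged 10 CPM or more over the libraries, 173 lay nearer to hsa-miR-148b-3p than hsa-miR-152 did, and 71 lay nearer to hsa-miR-152 than hsa-miR-148b-3p did. hsa-miR-148a-3p lay 0.70 from hsa-miR-152, with 27 of the 190 nearer to hsa-miR-148a-3p and 8 nearer to hsa-miR-152. Its distance to hsa-miR-148b-3p was 1.24, with 76 nearer to hsa-miR-148a-3p and 162 nearer to hsa-miR-148b-3p. The position of hsa-miR-148a-3p is uncertain given its counts.

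The nearest to hsa-miR-152 outside the family were hsa-miR-339-5p (distance 0.33, with 9.24, 24.1 and 14.9 CPM in parent, subclone1 and subclone2), hsa-miR-378c (0.41, with 8.86, 29.96 and 9.41 CPM) and hsa-miR-1 (0.42, with 6.71, 21.6 and 7.01 CPM). None was close, and each rested on at most 107 counts in a library. Around hsa-miR-148b-3p the space was crowded, with hsa-miR-193b-5p at 0.01, and hsa-miR-99b-3p and hsa-miR-139-3p both at 0.03. hsa-miR-148a-3p lay nearest to hsa-miR-30a-5p and hsa-miR-324-5p, both at 0.06, and to hsa-miR-548a-3p at 0.14. Reads of hsa-miR-378c and hsa-miR-548a-3p can be shared with near-identical relatives, so their levels are uncertain. These distances describe 3 libraries and nothing about function.

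The 7 bases of the family seed were then looked for at other starts. Among 2370 mature human names in the RefSeq table, CAGUGCA (read on the strand of the miRNA only) began at base 2 in 3, the family members themselves, at base 1 in 5 and at base 3 in 0. The 5 belong to the miR-130 and miR-301 group and its relatives, whose own seed is thereby shifted by 1 base. Only hsa-miR-130b-3p among them reached 10 CPM, and its sequence is shown with these 7 bases in capitals.
hsa-miR-130b-3p: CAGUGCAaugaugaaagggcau
It had 424, 173 and 190 counts in parent, subclone1 and subclone2 (53.7, 48.4 and 41.6 CPM) and was called in no comparison, with a log2 ratio of -0.14 in subclone1 against the parent (-0.41 to 0.11). The parent thus had more hsa-miR-130b-3p than hsa-miR-152 by read count, and both subclones had less. As these are different miRNAs, the ligation preference also enters this comparison. hsa-miR-301a-3p had 26, 5 and 5 counts, hsa-miR-301b 9, 2 and 1, and hsa-miR-3666 and hsa-miR-4295 0 in each library.

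Other miRNAs known to target DNA methyltransferases were described as a list of 7 names. Of these, 6 were kept in each comparison and 0 called, where 13.0%, 10.7% and 5.76% of all kept miRNAs were called. The median log2 ratio of the list, for subclone1 and subclone2 over the parent and for subclone2 over subclone1, was 0.07, -0.091 and -0.17, against 0.02, -0.15 and -0.17 over all kept miRNAs. hsa-miR-29a-3p, which targets the de novo methyltransferases DNMT3A and DNMT3B, was the most abundant, with 18710.6, 20379.7 and 18786 CPM in parent, subclone1 and subclone2. hsa-miR-185-5p had 3985, 4832 and 4250.1 CPM, hsa-miR-101-3p 1230.1, 1091 and 979 CPM, and hsa-miR-29b-3p 481, 488 and 411 CPM. Reads of the related hsa-miR-29 names may have been assigned to one another. The miRNAs given here are the most abundant of the list, and by read count each exceeded every family member in every library. So did hsa-miR-29c-3p (234, 267 and 236 CPM). The rest of the list did not. hsa-miR-342-3p (30.0, 27.4 and 26.3 CPM) lay below hsa-miR-152 and hsa-miR-148b-3p in each library, and hsa-miR-143-3p had 8, 1 and 1 counts.

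**Figure D5:**
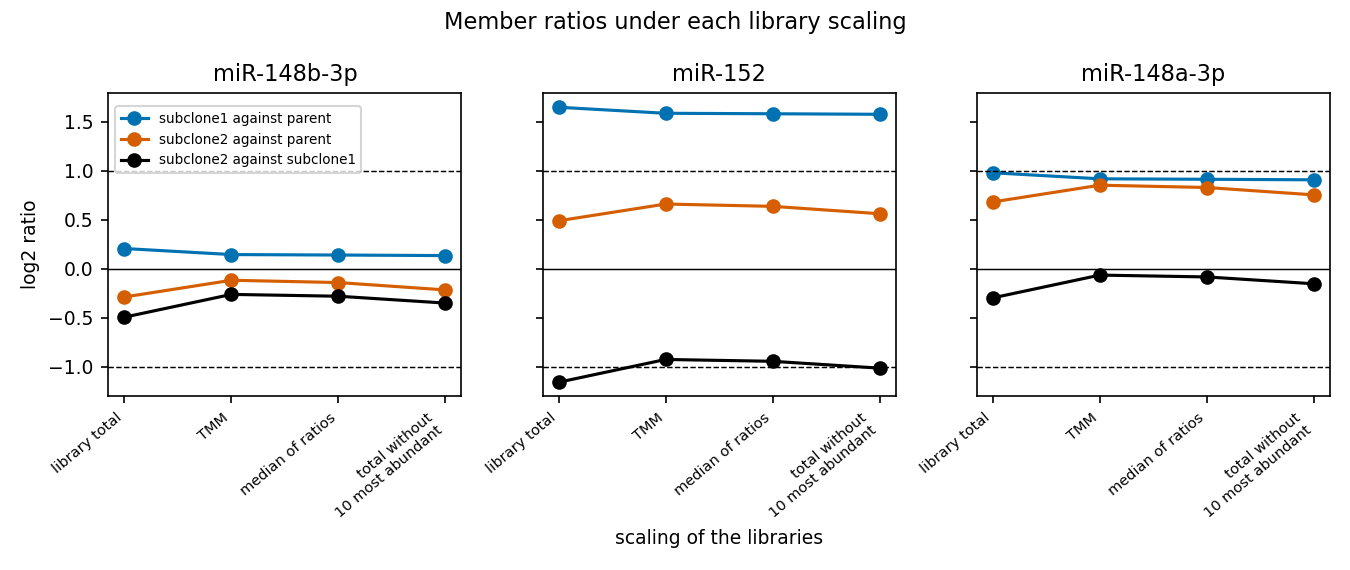
Log2 ratio of each guide-strand member for the 3 pairs of libraries (colours) under 4 library scalings, with dashed lines at 2-fold and lines joining the points of 1 pair. hsa-miR-152 stays above the upper line in subclone1 against parent (1.58 to 1.65) and crosses the lower line in subclone2 against subclone1 (-1.16 to -0.93). hsa-miR-148b-3p keeps opposite signs in the subclones against the parent under each scaling. Its intervals are not drawn, and they exclude a ratio of 1 for both subclones only with the library total.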

How the data were processed

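Small RNA libraries (Illumina TruSeq Small RNA kit, 1 ug of Trizol-extracted total RNA) of 3 strains were used, with 1 library per group. The authors deposited raw read counts per mature miRNA name, without coordinates. The submitters' processing notes name CASAVA 1.4 and hg19. Adapter trimming, aligner, mismatch limit, miRBase release and the treatment of reads matching several miRNAs are not given in the sources used here. The kit ligates adapters to both ends, which favours some ends, so ratios compare the same miRNA, or the same pair, between libraries.

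CPM are counts divided by the library totals (7902438, 3570864 and 4568075), and 10 CPM stood for 79.0, 35.7 and 45.7 counts. With 1 library per group no test could be made and no p-value exists. For log2 ratios 0.5 counts were added to each library, and ratios carry exact 95% conditional binomial intervals. A miRNA was called at 2-fold or more with an interval excluding 1 and a mean of at least 10 CPM. Ratios of 2 members carry Woolf intervals with 0.5 counts added. The named miRNAs are the family, the 3 nearest in pattern to each guide member, carriers of the seed at bases 1 to 3, and a DNA methyltransferase list (called members and up to 4 others by level). Members and lists were chosen with earlier results of these data known. The alternatives were TMM factors (edgeR 4.0.16), median-of-ratios factors (DESeq2 1.42.0), a total that leaves out the 10 leading miRNAs of each library, other minimum levels and fold thresholds, a pseudocount of 5 and summed arms. Computations used Python 3.11.15, scipy 1.17.1 and R 4.3.3. Hairpin positions and sequences are from RefSeq (GRCh38.p14), and host genes from GENCODE 29 (GRCh38).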

Additional observations from a re-analysis of the deposited data

Results flagged for a closer look

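hsa-miR-148b-3p moved in opposite directions in the subclones, with a log2 ratio of 0.21 in subclone1 against the parent (0.06 to 0.35) and of -0.29 in subclone2 against the parent (-0.44 to -0.14). Each direction rests on 1 library, both ratios share the parent, and the difference was not tested. The signs held under every scaling, but both intervals excluded 0 only with the library total. Under TMM scaling that of subclone2 was -0.27 to 0.03, under median-of-ratios scaling both included 0 (-0.003 to 0.28 and -0.29 to 0.004), and without the 10 most abundant miRNAs that of subclone1 was -0.01 to 0.27.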

How the results depend on the processing

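No paired analysis was possible because there is a single library per strain, which also means that none could be left out. The higher level of hsa-miR-152 in subclone1 against the parent stayed above 2-fold under every scaling and pseudocount tried (log2 1.58 to 1.65). Summing arms could not change it, as miR-152 has a single listed name. It was not called with a threshold of 4-fold, and with a minimum of 100 CPM the miRNA was not kept. Its call between the subclones was lost under TMM (-0.93) and median-of-ratios scaling (-0.95), since these factors shift all ratios of that pair upwards. Under these factors hsa-miR-148b-3p had -0.26 and -0.28 between the subclones, and -0.12 and -0.14 in subclone2 against the parent. The family sum had -0.51 and -0.53 between the subclones (-0.60 without the 10 most abundant miRNAs), and 0.12 and 0.095 in subclone2 against the parent, where the sign of this uncalled value changed. Of 60 values of members and sums under alternatives, 49 stayed within the interval of the reported value with the call as reported, 9 moved beyond it, 2 fell below the threshold and 0 reversed among called values. The 49 include the summed arms of hsa-miR-152, which repeat the reported values and could not move. All 15 shares stayed within their intervals, but those of the hairpin arms could not move. Their only alternative was a minimum of 10 counts over a hairpin, which each hairpin passed in every library. The number of calls over all miRNAs in subclone1 against the parent, subclone2 against the parent and subclone2 against subclone1 was 7, 5 and 2 with a minimum of 100 CPM and 67, 75 and 33 with none. With a fold threshold of 1.5 it was 56, 50 and 36, and with 4 it was 3, 3 and 1, changes that follow from the thresholds by construction. hsa-miR-148a-3p, with at most 27 counts in a library, is limited by depth throughout.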
